A study of Homo sapiens with 12 samples.

Results

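The 40 genes described here are a named set of the integrated stress response and the unfolded protein response, read from a table of 59653 gene symbols. They were chosen by name, with earlier results of these data known. All 40 were found in the table and all 40 passed the filter on low counts, which kept 24671 genes. For description they were divided by textbook role into an ATF4 arm of 18 genes (10 regulators of the integrated stress response and 8 targets in amino acid and one-carbon supply) and an endoplasmic reticulum (ER) arm of 22 genes (4 stress sensors, 10 chaperones and cochaperones, 4 members of the disulfide isomerase family and 4 genes of ER-associated degradation, ERAD). XBP1, the product of the sensor IRE1, is counted among the 4 sensors. The cells are neurons that were made from induced pluripotent cells of IMR-90, a human fibroblast line. The 6 control libraries came from cells treated with a negative control siRNA (siNC, n = 6), and the others from cells treated with an siRNA against ZCCHC17 (siZCC, n = 6), a zinc knuckle protein. No untreated cells are among the samples. All libraries come from 1 cell line, the titles carry the letters NPC without saying what they stand for, and nothing states whether replicates were separate cultures, so p-values measure the spread between these libraries, which may be technical. The comparison asks which members of the stress response differ when ZCCHC17 is knocked down.

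The siNC libraries held 90755953 to 120023356 counts each and the siZCC libraries 76115083 to 105389055. ZCCHC17 itself lay between 53.99 and 61.0 counts-per-million (CPM) in the siNC libraries and between 9.37 and 10.6 CPM in the siZCC libraries, a log2 fold change of -2.51 (SE 0.0402). Libraries stand apart in IL1B: siNC replicates 2, 3 and 6 and siZCC replicates 1, 4 and 5 held 449 to 1512 counts of it, and the other 6 libraries 2 to 12. Most defining neuronal markers were present, such as MAP2 at 1030 CPM in siNC, but RBFOX3 was at 1.27 CPM and TUBB3 at 14.2 CPM, and progenitor and astrocyte genes (VIM at 3550 CPM, GFAP at 616 CPM) were also high. Several marker lists moved with the siRNA. Their counts are read against all genes kept, of which 11.4% were higher and 10.8% lower by the test described below. Of 10 markers of dividing cells 8 were lower in siZCC and none higher (summed level 868 to 991 CPM in siNC and 707 to 822 CPM in siZCC), and of 12 neuronal markers 6 were lower and 1 higher (3306 to 3717 CPM and 3007 to 3397 CPM). Of 10 progenitor markers 4 were higher and 1 lower (5957 to 6326 CPM and 6010 to 6535 CPM), and of 10 astrocyte markers likewise 4 and 1 (1947 to 2165 CPM and 2029 to 2363 CPM). Of 10 mesenchymal markers 1 was higher and 5 lower (512 to 864 CPM and 388 to 605 CPM), of 6 endothelial markers kept of 8 none was higher and 3 were lower (15.9 to 21.4 CPM and 11.4 to 13.5 CPM), and of 4 pluripotency markers kept of 8 there were 3 higher (19.8 to 21.6 CPM and 26.0 to 27.4 CPM). The summed ranges of the neuronal, progenitor, astrocyte and mesenchymal lists overlapped between groups. Microglial markers summed to at most 2.91 CPM in any library, with C1QA and C1QB near 0, and 0 of the 3 kept passed. Among oligodendrocyte markers SOX10, MOG and MAG were near 0, and of the 7 kept 1 was lower (14.3%) and 0 were higher. The part of these marker differences in the results that follow was not tested, and in bulk RNA fewer cells of a type and less RNA per cell cannot be told apart.

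The integrated stress response starts when a kinase phosphorylates the initiation factor eIF2, which slows most translation while the mRNA of the transcription factor ATF4 is translated more. ATF4 then switches on genes that make, import and charge amino acids, together with regulators such as DDIT3 (CHOP), TRIB3 and CHAC1. The unfolded protein response has 3 ER sensors, PERK (EIF2AK3), IRE1 (ERN1) and ATF6. PERK is one of the eIF2 kinases and so feeds ATF4, while ATF6 and the IRE1 product XBP1 raise ER chaperones, disulfide isomerases and ERAD genes. Neurons use both systems to match protein synthesis to folding capacity and nutrient supply.

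The arms are also read by different promoter elements, which is why promoter sequences of members from both arms are shown. ATF6 and XBP1 are known to act through the ER stress response elements ERSE and ERSE-II, XBP1 and ATF6 also through the UPRE (TGACGTGG), and ATF4 with its C/EBP partners through the C/EBP-ATF response element, CARE (TGATGNAA). These elements were searched as exact matches on both strands in the 250 bases before the annotated start of 27305 genes in RefSeq (GRCh38.p14). The table held 35 of the 40 members, 15 of the ATF4 arm and 20 of the ER arm; ERP27, NUPR1, PDIA3, PSPH and SHMT2 were not matched. The sequences below are the stretches of these windows that lie outside annotated exons, 5′ to 3′ on the gene's strand, with the matches in capitals. HSPA5 and CALR have an ERSE, SDF2L1 an ERSE-II, HYOU1 a pair of ERSE-II matches of which the first overlaps a UPRE, HERPUD1 a CARE followed by an ERSE-II, and ATF3 a CARE.

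HSPA5 (chr9:125241344-125241593, minus strand): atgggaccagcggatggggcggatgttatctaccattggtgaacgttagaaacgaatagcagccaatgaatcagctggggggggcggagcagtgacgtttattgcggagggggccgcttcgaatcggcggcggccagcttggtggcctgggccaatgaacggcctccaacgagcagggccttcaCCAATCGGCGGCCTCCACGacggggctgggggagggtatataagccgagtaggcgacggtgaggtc
CALR (chr19:12938359-12938577, plus strand): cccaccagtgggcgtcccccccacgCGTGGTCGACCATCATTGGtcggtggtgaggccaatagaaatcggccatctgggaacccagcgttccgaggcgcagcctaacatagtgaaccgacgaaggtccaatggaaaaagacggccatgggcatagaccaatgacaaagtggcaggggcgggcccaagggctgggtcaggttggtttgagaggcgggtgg
HYOU1 (chr11:119057206-119057455, minus strand): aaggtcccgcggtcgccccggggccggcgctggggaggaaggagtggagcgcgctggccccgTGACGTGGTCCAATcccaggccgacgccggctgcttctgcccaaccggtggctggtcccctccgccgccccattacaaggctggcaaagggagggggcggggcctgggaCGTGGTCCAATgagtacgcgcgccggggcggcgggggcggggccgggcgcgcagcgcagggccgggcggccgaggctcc
SDF2L1 (chr22:21642052-21642260, plus strand): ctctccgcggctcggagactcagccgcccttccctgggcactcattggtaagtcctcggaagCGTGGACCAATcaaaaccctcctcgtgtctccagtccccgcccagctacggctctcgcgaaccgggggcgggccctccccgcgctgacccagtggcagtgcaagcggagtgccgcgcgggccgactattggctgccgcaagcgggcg
HERPUD1 (chr16:56931892-56932047, plus strand): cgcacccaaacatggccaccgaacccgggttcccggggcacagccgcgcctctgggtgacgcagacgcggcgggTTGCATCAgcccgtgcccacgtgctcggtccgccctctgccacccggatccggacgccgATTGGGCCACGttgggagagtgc
ATF3 (chr1:212565157-212565333, plus strand): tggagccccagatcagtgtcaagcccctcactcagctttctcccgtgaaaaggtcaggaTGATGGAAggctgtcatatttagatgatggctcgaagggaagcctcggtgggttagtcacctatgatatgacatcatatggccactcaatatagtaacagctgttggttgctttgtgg

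An ERSE or ERSE-II stood in the window of 10 of the 20 ER arm members (XBP1, HSPA5, HSP90B1, HYOU1, CALR, CANX, SDF2L1, CRELD2, PDIA6 and HERPUD1) and in 0 of the 15 ATF4 arm members, against 0.157% of all genes searched. The ER arm was chosen by textbook role and holds genes known to be raised by ATF6 and XBP1, so this contrast follows largely from that choice. Of the 10 members with an ERSE or ERSE-II 2 passed the test described below, HSP90B1 and SDF2L1, both lower. At 20% this share is close to the 22.2% of all genes kept. The log2 fold changes of all 10 ran from -0.18 to 0.03. The CARE is shorter and more common, at 3.89% of genes, and was found in ATF3, CHAC1 (TTGCATCA, a match on the opposite strand, chr15:40953262-40953269), ASNS (TGATGAAA, chr7:97872469-97872476) and HERPUD1. CHAC1 alone of these 4 passed the test. The UPRE was found in HYOU1 and in 0.78% of all genes. The matches in CHAC1, ASNS, CANX and HSP90B1 lie at least in part within exons annotated by GENCODE v29. A match is a description of the letters and not of binding.

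Members of the ATF4 arm that passed the test were all higher in siZCC. In the ER arm the share that passed was near that of all genes kept, and 4 of the 5 members that passed were lower. In the fit across all genes (edgeR's quasi-likelihood test, Benjamini-Hochberg adjusted p under 0.05), 14 of the 40 members passed, or 35.0%, where 22.2% of all genes kept did. Since members and roles were chosen with earlier results of these data known, the shares given here describe the set only. In the ATF4 arm 9 of 18 members were higher, where 11.4% of all genes kept were higher, and 0 were lower; at an unadjusted p under 0.05 there were 2 lower, ATF5 and PPP1R15A, and DESeq2 called 1 lower. In the ER arm 1 of 22 was higher (4.55%) and 4 were lower (18.2%), where 10.8% of all genes kept were lower. Taken in both directions, 22.7% of the ER arm passed, close to the 22.2% of all genes kept. The median log2 fold change was 0.18 in the ATF4 arm, -0.01 in the ER arm and -0.00164 over all genes kept. The groups did not overlap in 6 members of the ATF4 arm (33.3%) and 1 of the ER arm (4.55%), against 9.74% of all genes kept. No overlap means that every siZCC library lay on one side of every siNC library. Summed over the ATF4 arm, the level was 1161 to 1260 CPM in siNC and 1274 to 1361 CPM in siZCC, so the ranges did not overlap. In summed CPM this separation lies in the amino acid and one-carbon targets (675 to 749 CPM and 788 to 842 CPM). The 10 regulators summed to 486 to 523 CPM in siNC and 486 to 527 CPM in siZCC. Most of that sum is ATF4, DDIT4 and PPP1R15A (means of 237, 93.8 and 67.8 CPM in siNC), which did not pass. Taken singly, 5 of the 10 regulators were higher, and groups did not overlap in 3 regulators and 3 targets. The ER arm ran from 3544 to 3783 CPM and from 3422 to 3775 CPM.

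**Figure D1:**
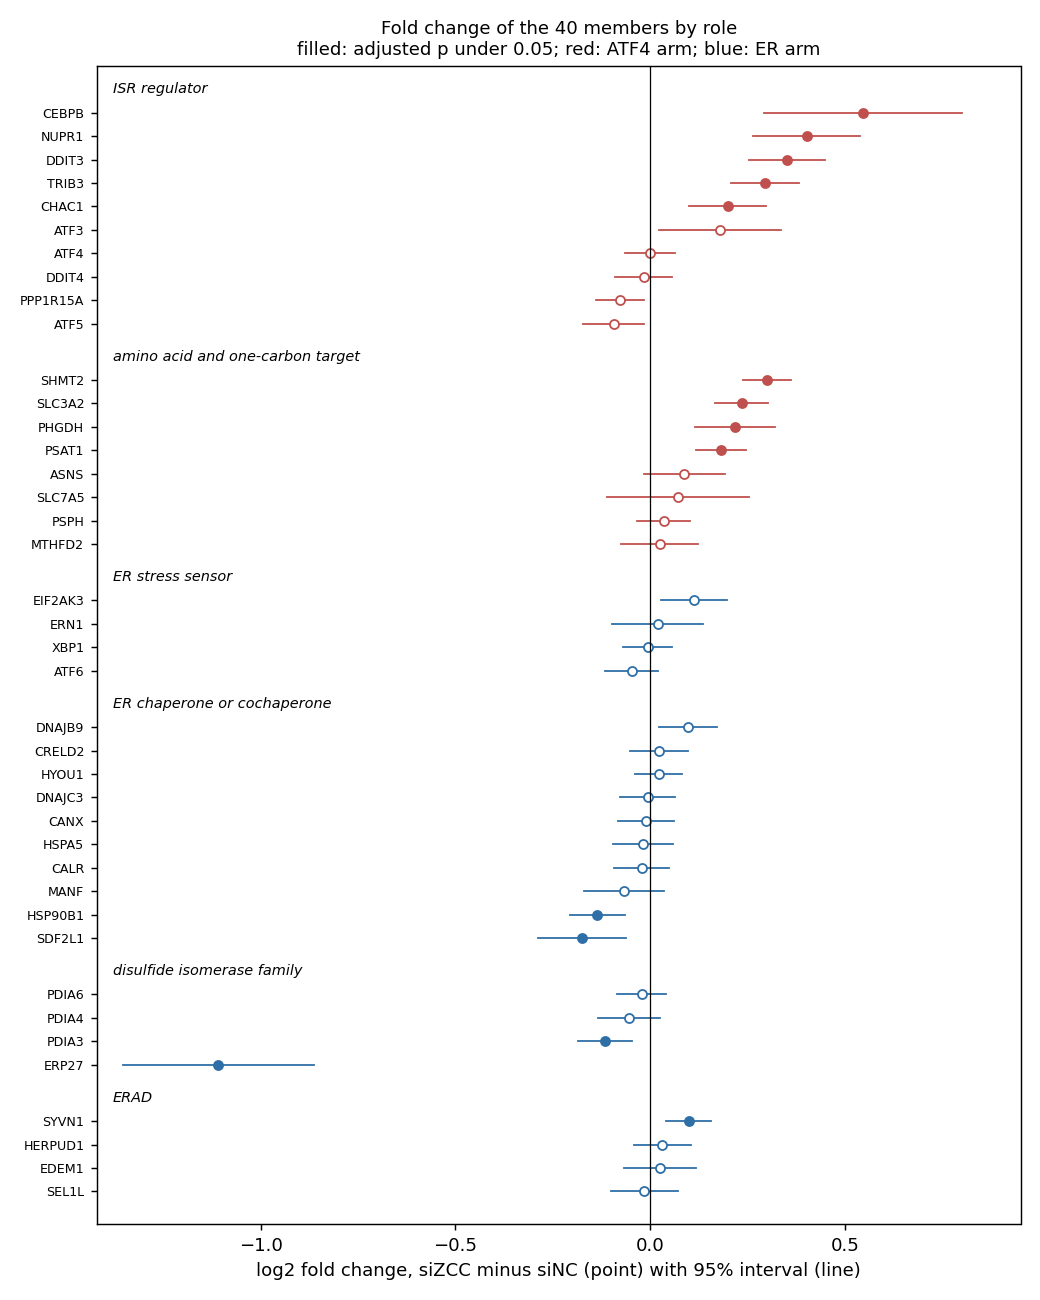
Log2 fold change of each of the 40 members (horizontal axis, siZCC minus siNC) with its 95% interval, by role, for 6 libraries a group; filled points have an adjusted p under 0.05, red points are the ATF4 arm and blue points the ER arm. The 9 filled red points all lie to the right of 0, 4 of the 5 filled blue points lie to the left, and ERP27 at -1.11 lies far from the rest.

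Among the regulators, ATF4 (chr22:39519695-39522685, GRCh38) did not pass the test. Its level ran from 227 CPM through a median of 236 to 254 CPM in siNC, and from 226 through 238 to 244 CPM in siZCC. The log2 fold change was -0.0014 (SE 0.0305, adjusted p = 0.980), with a 95% interval from -0.066 to 0.063. The groups overlapped almost wholly, and the sign of this small value turned in some of the alternatives given in the closing section. ATF4 is controlled largely at translation, and its protein was not measured.

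DDIT3 (CHOP, chr12:57516588-57521737), a C/EBP-family factor induced by ATF4, was higher. It ran from 16.0 CPM through a median of 17.8 to 19.6 CPM in siNC and from 21.0 through 23.1 to 23.4 CPM in siZCC. This was a log2 fold change of 0.35 (SE 0.0462, adjusted p = 5.38e-05), with a 95% interval from 0.25 to 0.45. No siNC library reached the lowest siZCC library. Exons of the methionyl-tRNA synthetase gene on the opposite strand cover 27.2% of the exon bases of DDIT3, and the strand setting of the counting is not given in the sources used here. That neighbour, MARS1, had a log2 fold change of 0.04 (SE 0.0293, adjusted p = 0.328).

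TRIB3 (chr20:362835-397559), a pseudokinase that is a target of ATF4 and DDIT3 and acts back on them, followed the same direction. Its level was 19.1, 20.6 and 21.3 CPM (lowest, median and highest) in siNC and 22.3, 25.5 and 26.2 CPM in siZCC. The log2 fold change was 0.29 (SE 0.0414, adjusted p = 1.01e-04). The groups did not overlap, and siZCC replicate 2 was the low library of its group.

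NUPR1 (chr16:28532708-28539174), a small stress-induced nuclear protein, had 8.58, 9.56 and 10.7 CPM in siNC and 11.2, 13.1 and 13.8 CPM in siZCC. Its log2 fold change was 0.40 (SE 0.0652, adjusted p = 3.63e-04), again without overlap. CHAC1 (chr15:40952962-40956519), which degrades glutathione, was higher by a smaller step. It had 13.2, 14.5 and 15.2 CPM in siNC and 14.9, 16.6 and 17.8 CPM in siZCC, and the lowest siZCC library lay inside the siNC range. Its log2 fold change was 0.20 (SE 0.0470, adjusted p = 0.00603).

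CEBPB (chr20:50190734-50192689), a C/EBP factor that pairs with ATF4, showed the largest rise of any member, with the largest SE. It had 7.31, 9.97 and 11.8 CPM in siNC and 10.7, 14.9 and 17.5 CPM in siZCC. This gave a log2 fold change of 0.55 (SE 0.1205, adjusted p = 0.00369), with a 95% interval from 0.29 to 0.80. siZCC replicates 5 and 6 lay inside the siNC range, and the other 4 siZCC libraries lay above it.

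The other regulators did not pass the test. ATF3, a stress-induced repressor and activator, had a log2 fold change of 0.18 (SE 0.0741, adjusted p = 0.0950), and its interval reached 0.34. PPP1R15A (GADD34), the subunit that directs eIF2 dephosphorylation, stood at -0.08 (adjusted p = 0.0637), and ATF5, a relative of ATF4, at -0.09 (adjusted p = 0.0818). ATF3, PPP1R15A and ATF5 lay near the threshold and passed it in 3, 4 and 3 of 24 alternatives. DDIT4 (REDD1), an inhibitor of the mTORC1 pathway, stood at -0.02 (adjusted p = 0.769).

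**Figure D2:**
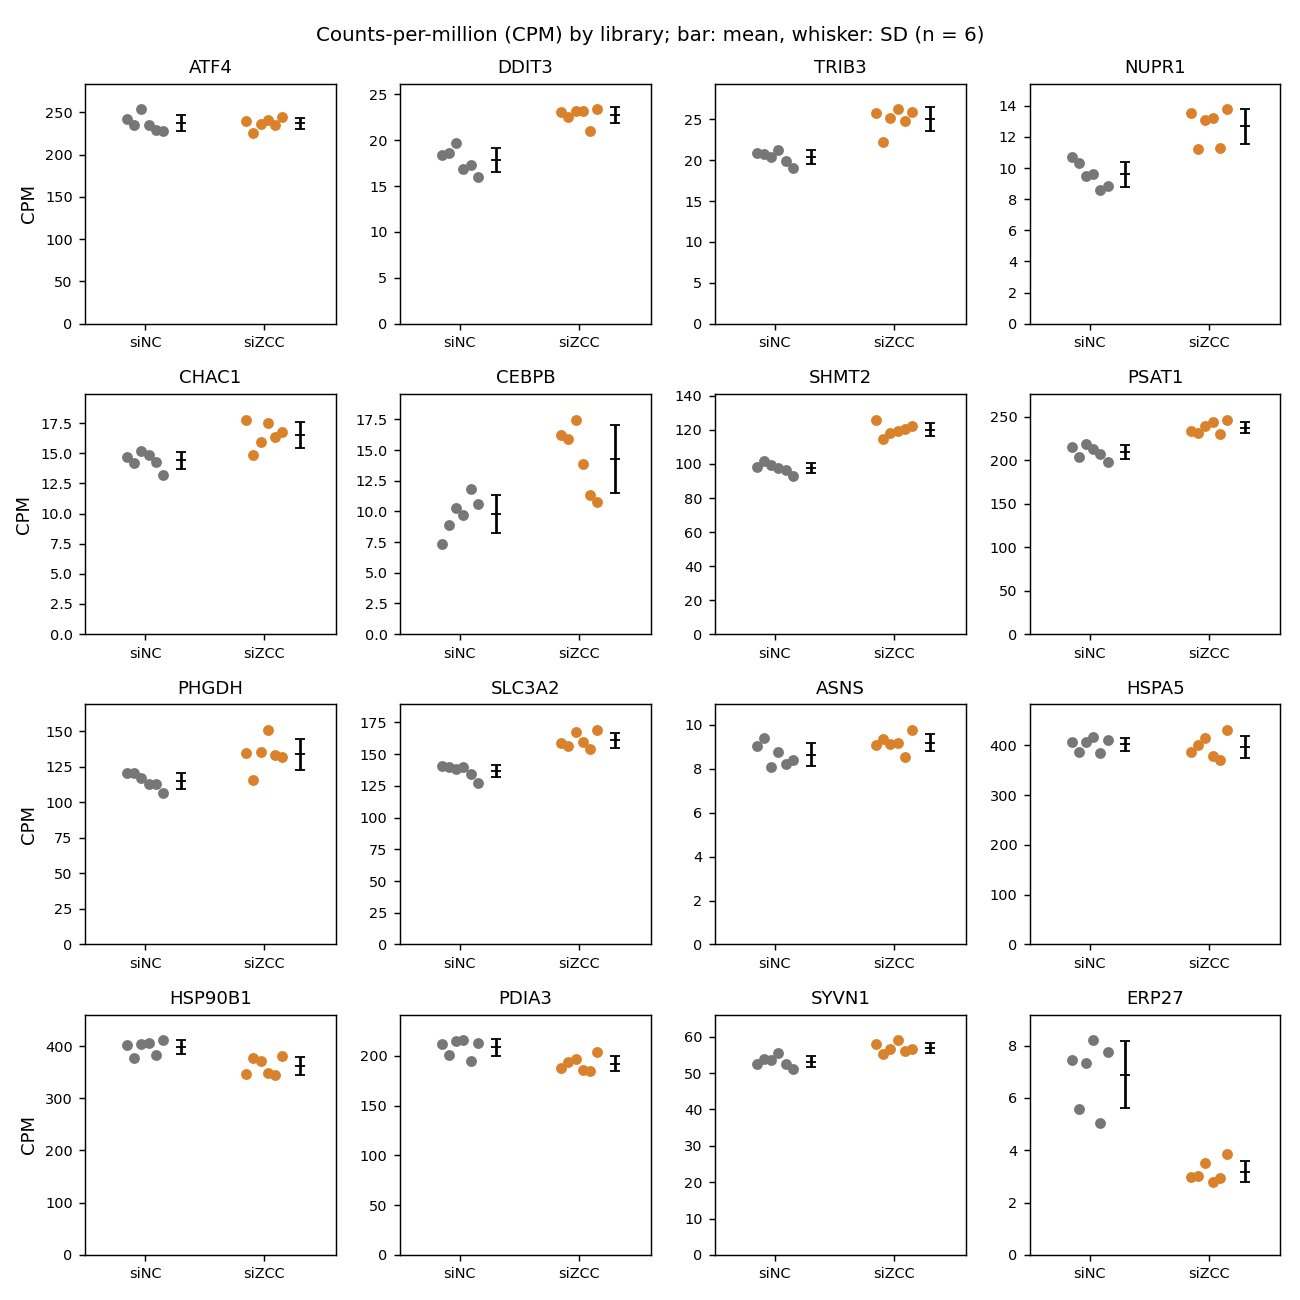
CPM of 16 members in each library (vertical axis from 0; grey siNC, orange siZCC, 6 libraries a group), with the mean as a bar and the SD as a whisker beside the points. ATF4 and HSPA5 overlap between groups, whereas DDIT3, TRIB3, NUPR1, SHMT2, PSAT1, SLC3A2 and ERP27 do not.

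All 8 targets in amino acid and one-carbon supply had a positive log2 fold change, and 4 of them passed the test. SHMT2 (chr12:57229327-57234935), the mitochondrial enzyme that passes the serine carbon to folate, had the smallest p of the ATF4 arm. It had 92.7, 98.1 and 101 CPM in siNC and 115, 120 and 126 CPM in siZCC. Without overlap of the groups, its log2 fold change was 0.30 (SE 0.0294, adjusted p = 3.89e-06). An antisense gene shares 8.83% of its exon bases.

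Serine is made from a glycolytic intermediate by PHGDH, PSAT1 and PSPH in turn. PHGDH (chr1:119648411-119744226), the first enzyme, had 106, 115 and 121 CPM in siNC and 116, 134 and 151 CPM in siZCC, with 1 siZCC library inside the siNC range. Its log2 fold change was 0.22 (SE 0.0487, adjusted p = 0.00413). PSAT1 (chr9:78297143-78330093), the transaminase, had 198, 210 and 219 CPM in siNC and 230, 236 and 246 CPM in siZCC, without overlap. Its log2 fold change was 0.18 (SE 0.0299, adjusted p = 4.03e-04). PSPH, the phosphatase that ends the pathway, stood at 0.03 (SE 0.0322, adjusted p = 0.498), so the first and second steps passed the test and the last did not.

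SLC3A2 (CD98 heavy chain, chr11:62856102-62888875) carries amino acid exchangers to the membrane. It had 128, 139 and 141 CPM in siNC and 154, 159 and 169 CPM in siZCC, without overlap, for a log2 fold change of 0.23 (SE 0.0320, adjusted p = 7.82e-05). Its partner SLC7A5 (LAT1) varied more between control libraries, with a coefficient of variation of 16.1% in siNC, and stood at 0.07 (SE 0.0864, adjusted p = 0.612). The interval of SLC7A5, from -0.11 to 0.25, holds the value measured for SLC3A2.

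ASNS, the asparagine synthetase and a classic ATF4 target, did not pass the test. A processed transcript on the same strand, AC079781.5, shares 44.6% of its exon bases, so its level and its test may miss or include reads of that gene. It had 8.07, 8.59 and 9.40 CPM in siNC and 8.56, 9.16 and 9.76 CPM in siZCC, so the groups overlapped. The log2 fold change was 0.09 (SE 0.0493, adjusted p = 0.229), with a 95% interval from -0.02 to 0.19. MTHFD2, of mitochondrial one-carbon metabolism, stood at 0.02 (adjusted p = 0.759). Over the 9 members of the ATF4 arm that did not pass, the intervals ran from -0.17 at ATF5 to 0.34 at ATF3, so changes of the size seen in DDIT3 lie outside all of them.

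A list of further ATF4 targets held 30 genes of amino acid supply and stress, with 29 kept. Of these, 16 were higher (55.2%) and 0 were lower, against 11.4% and 10.8% of all genes kept (median log2 fold change 0.14). By smallest p the first were SLC6A9, the glycine transporter GlyT1, which went from 139 ± 8.60 to 178 ± 5.81 CPM (mean ± SD, n = 6 each; log2 fold change 0.36, adjusted p = 7.21e-06), XPOT, which exports tRNA from the nucleus (0.30, adjusted p = 2.48e-05), and JDP2, a relative of ATF3 (0.38, adjusted p = 2.66e-05). The other 13 that were higher are GDF15, BBC3, PCK2, CTH, GADD45A, GPT2, SLC7A3, SLC7A11, VEGFA, PYCR1, VLDLR, SESN2 and SLC1A5. GDF15, BBC3, GADD45A and SESN2 are also known targets of p53. The list was chosen with earlier results of these data known, so its count is not independent of them.

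Transcripts of the enzymes that charge tRNA moved in both directions. Of 20 cytosolic aminoacyl-tRNA synthetases 6 were higher (30%) and 2 lower (10%), against 11.4% and 10.8% of all genes kept (median 0.05), among them AARS1 for alanine (0.21, adjusted p = 1.47e-04) and VARS1 for valine (0.16, adjusted p = 8.02e-04). WARS1 for tryptophan, which is also an interferon-induced gene, was lower (-0.38, adjusted p = 2.26e-04), as was RARS1 for arginine (-0.12, adjusted p = 0.0172). A list of 21 genes held the eIF2 kinases, eIF2, its exchange factor eIF2B and its phosphatase, with related factors (GCN1, DELE1, OMA1, EIF2A, EIF2D and NCK1). Of these 21 genes 5 were higher (23.8%) and 1 was lower (4.76%), against those shares of all genes kept, with a median of 0.04. The higher genes were EIF2B2, PPP1R15B and the related factors GCN1, OMA1 and EIF2D. EIF2D, an initiation factor that works without eIF2, stood at 0.16 (adjusted p = 0.00136), EIF2B2, an exchange-factor subunit, at 0.13 (adjusted p = 0.00760), and PPP1R15B, the constitutive partner of the eIF2 phosphatase, at 0.11 (adjusted p = 0.0112). PPP1CA, a catalytic subunit of that phosphatase, was lower at -0.17 (adjusted p = 0.00111).

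**Figure D3:**
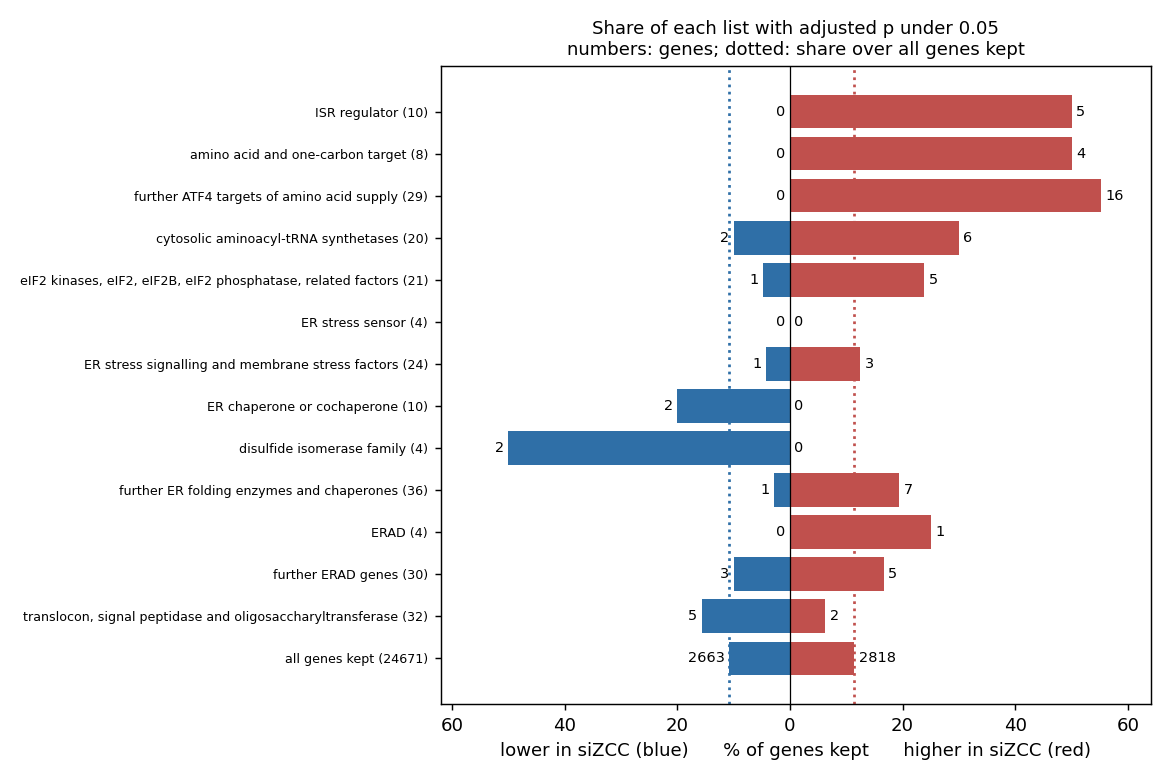
Percent of the genes kept in each list that were higher (red, right) or lower (blue, left) in siZCC at an adjusted p under 0.05; numbers at the bars count genes, the number in each label is the list's size and dotted lines mark 11.4% higher and 10.8% lower over all 24671 genes. Regulators and further ATF4 targets reach 50% and 55.2% higher with 0 lower, whereas the sensors, counted with XBP1, have 0 on both sides.

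In the ER arm 0 of the 4 genes of the sensor group, XBP1 included, passed the test. Of these 1, EIF2AK3, had an unadjusted p under 0.05 and was called by DESeq2. ERN1 (IRE1), the kinase and nuclease that splices XBP1 mRNA, ran from 12.1 CPM through a median of 13.4 to 15.1 CPM in siNC and from 12.2 through 13.6 to 14.8 CPM in siZCC (log2 fold change 0.02, SE 0.0557, adjusted p = 0.851). EIF2AK3 (PERK) had 27.8, 29.3 and 30.4 CPM in siNC and 29.1, 31.5 and 34.1 CPM in siZCC (0.11, SE 0.0400, adjusted p = 0.0526), just short of the threshold, which it passed in 6 of 24 alternatives. ATF6 had 86.3, 91.3 and 94.0 CPM in siNC and 83.3, 87.6 and 92.5 CPM in siZCC (-0.05, SE 0.0320, adjusted p = 0.313). XBP1 had 52.5, 54.7 and 56.4 CPM in siNC and 50.6, 54.7 and 56.6 CPM in siZCC (-0.01, SE 0.0299, adjusted p = 0.898). The groups of all 4 overlapped. Splicing of XBP1, cleavage of ATF6 and phosphorylation of PERK, through which these sensors act, cannot be read from gene counts.

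HSPA5 (BiP, chr9:125234853-125241330), the ER chaperone whose rise is the usual sign of an unfolded protein response, did not pass the test. It had 384, 408 and 416 CPM in siNC and 371, 394 and 431 CPM in siZCC. The log2 fold change was -0.02 (SE 0.0364, adjusted p = 0.770), with a 95% interval from -0.10 to 0.06, and the siZCC libraries spread to both sides of the siNC range. HSP90B1 and SDF2L1 were lower. HSP90B1 (GRP94, chr12:103930107-103953645), the ER form of HSP90, had 378, 403 and 411 CPM in siNC and 345, 359 and 381 CPM in siZCC (log2 fold change -0.14, SE 0.0333, adjusted p = 0.00739). SDF2L1 (chr22:21642261-21644298), a cofactor of BiP and its DNAJ partners, had 8.20, 9.03 and 9.60 CPM in siNC and 7.09, 8.04 and 8.57 CPM in siZCC (-0.18, SE 0.0535, adjusted p = 0.0259). In both the groups overlapped at their edges.

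The remaining 7 chaperones and cochaperones did not pass the test. CALR and CANX, the lectins that hold glycoproteins for folding, stood at -0.02 and -0.01, HYOU1 (GRP170), a nucleotide exchange factor of BiP, at 0.02, DNAJC3 (p58IPK), a BiP cochaperone, at -0.01, CRELD2 at 0.02 and MANF, a secreted ER stress protein, at -0.07. DNAJB9 (ERdj4), an IRE1-XBP1 target, stood at 0.10 (SE 0.0353, adjusted p = 0.0567) and passed in 7 of 24 alternatives. Over the 17 members of the ER arm that did not pass, the intervals ran from -0.17 at MANF to 0.20 at EIF2AK3.

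The disulfide isomerase family held the largest change of the set. ERP27 (chr12:14914035-14939082), a family member without a catalytic site that binds PDIA3, was lower in every siZCC library than in any siNC library. It had 5.04, 7.39 and 8.19 CPM in siNC and 2.80, 2.99 and 3.87 CPM in siZCC. The log2 fold change was -1.11 (SE 0.1164, adjusted p = 6.70e-06), with a 95% interval from -1.35 to -0.86, and the mean fell by 53.6%. These are low levels, 605 to 901 counts in siNC and 210 to 365 counts in siZCC, and no annotated exon of another gene overlapped it. PDIA3 (ERp57, chr15:43746392-43773279), the isomerase that works with CALR and CANX, had 195, 213 and 216 CPM in siNC and 185, 191 and 204 CPM in siZCC (log2 fold change -0.12, SE 0.0327, adjusted p = 0.0163), with overlap. PDIA4 and PDIA6, catalytic isomerases, stood at -0.05 and -0.02 and did not pass. ELL3, on the opposite strand, shares 14.8% of the exon bases of PDIA3.

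Of the 4 ERAD members, SYVN1 (HRD1, chr11:65121780-65134533), the ubiquitin ligase of the retrotranslocation complex, was higher. It had 51.2, 53.0 and 55.4 CPM in siNC and 55.36, 56.6 and 59.0 CPM in siZCC, for a log2 fold change of 0.10 (SE 0.0274, adjusted p = 0.0152), and the groups touched at 1 library each. With no filter on low counts the adjusted p was 0.0605. SEL1L, its partner, stood at -0.02, HERPUD1, which recruits the complex, at 0.03, and EDEM1, which trims mannose on misfolded glycoproteins, at 0.02, none of them past the test. FAU shares 7.24% of the exon bases of SYVN1 on the same strand.

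The wider ER genes are read against the 11.4% higher and 10.8% lower of all genes kept. Of 36 further folding enzymes and chaperones 7 were higher (19.4%) and 1 lower (2.78%), with a median of 0.02. FKBP10, a prolyl isomerase that assists collagen, stood at 0.26 (adjusted p = 4.68e-05), CNPY3, a cofactor of HSP90B1, at 0.17 (adjusted p = 0.00331), ERP29 at 0.16 (adjusted p = 0.00445) and TMX4, a membrane thioredoxin, at -0.20 (adjusted p = 6.27e-04). Of 30 further ERAD genes 5 were higher (16.7%) and 3 lower (10%, median 0.02), among them NGLY1, which strips glycans from retrotranslocated proteins, at -0.13. Of 32 genes of the translocon, signal peptidase and oligosaccharyltransferase 2 were higher (6.25%) and 5 lower (15.6%, median 0.00209), with SRPRA, of the signal recognition particle receptor, at 0.11, and SEC61G, a channel subunit, at -0.14. Of 24 genes of ER stress signalling 3 were higher (12.5%) and 1 lower (4.17%, median 0.02), with UFL1 and DDRGK1, of the UFM1 ligase complex, at 0.23 and 0.18 and MAP3K5 (ASK1), a stress kinase, at -0.35.

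Levels can be compared between genes only per length, here as TPM, a count scaled by exon length and by the library's sum. The length joins the exons of all transcripts of a gene in GENCODE v29. TPM therefore reads low where the main transcript is much shorter, and ranks between genes are approximate. In siNC the most abundant members were CALR at 826 ± 32.2 TPM, CANX at 639 ± 36.1 TPM and HSPA5 at 439 ± 17.6 TPM (mean ± SD, n = 6). PSAT1 followed at 407 ± 15.4 TPM and ATF4 at 402 ± 15.5 TPM, which do not differ beyond their spread. The lowest were ASNS at 8.27 ± 0.517 TPM, NUPR1 at 7.21 ± 0.632 TPM and ERN1 at 5.28 ± 0.447 TPM. ERP27 went from 12.1 ± 2.30 TPM in siNC to 5.49 ± 0.727 TPM in siZCC, a level close to that of ERN1. The members that were higher in siZCC thus lay across the range of levels, from NUPR1 to PSAT1.

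**Figure D4:**
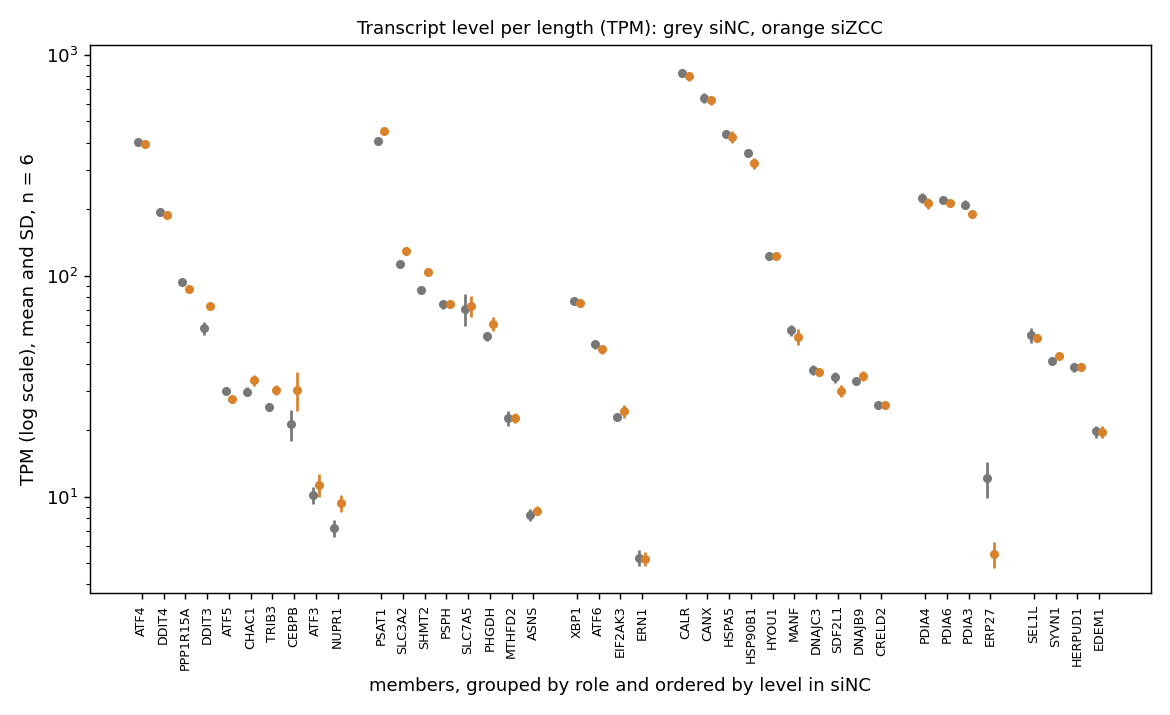
Level of each member per length (vertical axis, TPM on a log scale; mean and SD of 6 libraries; grey siNC, orange siZCC), grouped by role. CALR at 826 TPM and ERN1 at 5.28 TPM bound the siNC range, and ERP27 drops from 12.1 to 5.49 TPM.

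Libraries were also compared by IL1B. Between libraries with high and low counts of it, over all 12 and with the siRNA in the model, 36 of 24671 genes passed (0.146%) and 0 of the 40 members did, with 4 at an unadjusted p under 0.05. Within each side, with 3 libraries a group, all 14 members that passed over all libraries kept their direction. DDIT3 stood at 0.31 in the libraries with high IL1B and at 0.39 in those with low IL1B, SHMT2 at 0.31 and 0.28, NUPR1 at 0.40 and 0.40, and ERP27 at -1.25 and -0.99. CHAC1 at 0.28 and 0.12, PHGDH at 0.28 and 0.15, HSP90B1 at -0.20 and -0.08 and PDIA3 at -0.17 and -0.07 were more than 1.5 times apart, as was SYVN1 at 0.12 and 0.07. With low IL1B the first 4 of these did not pass (adjusted p = 0.281, 0.169, 0.260 and 0.418). SDF2L1 and SYVN1 passed on neither side, and CEBPB with low IL1B had an adjusted p of 0.0733. ATF3, which did not pass over all libraries, stood at 0.02 with high IL1B and at 0.32 with low IL1B. The difference between the sides was not tested.

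**Figure D5:**
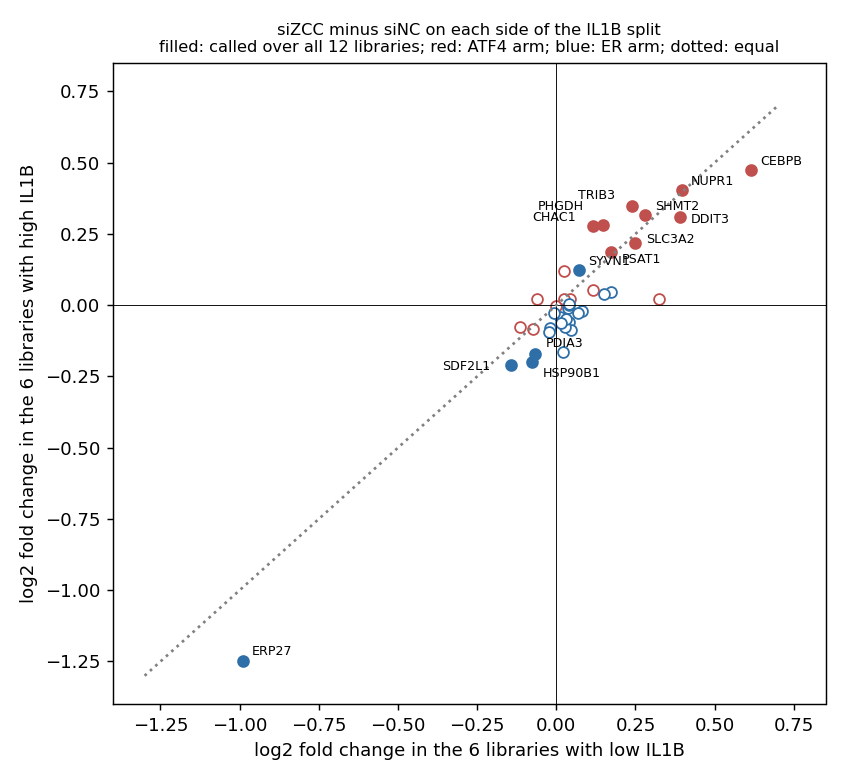
Log2 fold change of the 40 members in the 6 libraries with low IL1B (horizontal axis) and in the 6 with high IL1B (vertical axis), 3 a group on each side; filled points passed over all 12 libraries, red is the ATF4 arm, blue the ER arm and the dotted line marks equal values. All filled points have the same sign on both axes, and ERP27 lies alone at -0.99 and -1.25.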

How the data were processed

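RNA-seq counts were analysed for 6 siNC and 6 siZCC libraries, grouped and numbered by their titles. Per the labels' protocols, total RNA from cells lysed in Qiazol went into libraries of the NEBNext Ultra II Directional kit, and what the authors deposited are raw counts per gene symbol. The submitters' processing notes name bcl2fastq 2.17, STAR 2.7.6a, featureCounts 2.0.1 and GRCh38; the annotation and strand setting are not given in the sources used here. The deposited counts were tested, unchanged, with edgeR 4.0.16 (R 4.3.3): filterByExpr (about 0.0997 CPM) kept 24671 genes, libraries were scaled by TMM, and siZCC was set against siNC by the quasi-likelihood test, with Benjamini-Hochberg adjustment over all genes kept and a threshold of 0.05. The SE is the log2 fold change divided by the square root of F. CPM values are TMM-scaled, and TPM was computed from counts and exon lengths. The log2 CPM behind the IL1B split and the correlations of same-numbered libraries uses a prior count of 2. The log2 CPM printed with Dixon's ratio below has no prior count.

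The 40 members, their roles, the further gene lists, the marker lists and the IL1B split were chosen with earlier results of these data known. Members that passed the test are described with values, as are the sensors, ATF4, HSPA5 and ASNS; in each further list up to 3 genes with the smallest p in each direction could be named, beside genes named after their values were seen. Some genes that this rule names are not reported here. Exact matches of ERSE, ERSE-II, CARE and UPRE were sought in RefSeq promoter windows. Alternatives were other scalings and filters, DESeq2 1.42.0, limma 3.58.1 voom, the replicate number or the IL1B side as a block, fits within each IL1B side, a minimum change of 1.2-fold, each library left out in turn and, added after seeing the data, a correction for GC content and length. Libraries of 1 group differed by more than sampling noise (lowest chi-square over its degrees of freedom 4.72). Precision is set by replicate spread (biological coefficient of variation 6.55%) more than by depth.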

Additional observations from a re-analysis of the deposited data

Results flagged for a closer look

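In 3 of 46 groups of 6 libraries examined (totals, and log2 CPM of the members described and of ZCCHC17), 1 library lay far from the others by Dixon's ratio, the gap to the nearest library divided by the group's range set against its 95% critical value; chance alone marks about 1 group in 20. In siNC the total of replicate 4 was the lowest, with a ratio of 0.657. In siZCC the log2 CPM of DDIT3 was lowest in replicate 5, at 4.40 against 4.49 in the next library and 4.55 in the highest, a ratio of 0.634. In siZCC the log2 CPM of TRIB3 was lowest in replicate 2, at 4.48 against 4.63 and 4.71, a ratio of 0.666. Both low values still lay above every siNC library, and both genes passed the test with each of the 12 libraries left out in turn.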

How the results depend on the processing

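All 14 members that passed kept their direction in each of 23 alternatives that gave a fold change, and in 308 of 322 comparisons they stayed on the same side of the threshold; the other 14 no longer passed. Leaving out each library gave 13 to 18 members called, 18 of them without siZCC replicate 5, with 9 to 11 in the ATF4 arm and 4 to 7 in the ER arm; SDF2L1 no longer passed in 4 of these 12 fits (adjusted p up to 0.0669). Against a minimum change of 1.2-fold, 1 member was called (ERP27), with 0 ATF4 arm members called and 1 in the ER arm, and all genes called numbered 349, so the rises of the ATF4 arm were not shown to exceed 1.2-fold. In the libraries with high IL1B 2043 genes and 3 ER arm members were called, and in those with low IL1B 1602 genes, 7 members and 1 ER arm member; these fits have fewer libraries. The sign of members near 0 turned. ATF4 was 0.004459 with the GC and length correction and ran from -0.01443 to 0.01861 with libraries left out. HSPA5 was 0.04526 with low IL1B, 0.01104 with the correction, and from -0.04715 to 0.0008438 with libraries left out. ERN1 was -0.008278 with high IL1B and ran from -0.0107 to 0.05442 with libraries left out, and XBP1 was 0.04022 with low IL1B, 0.03492 with the correction, and from -0.02284 to 0.01256 with libraries left out. The cause was not tested. With the correction 19 members passed, 13 higher and 6 lower. PPP1R15A or ATF5 were called lower in the ATF4 arm with upper quartile scaling, with DESeq2, with the correction and without siNC replicate 1, siZCC replicate 5 or siZCC replicate 6. With the replicate number as a block 15 members and 4902 genes were called, ATF3 being added (adjusted p = 0.0346). The labels do not say whether same-numbered libraries share a batch. Over all genes kept their deviations correlated between -0.077 and 0.018, and 0 of 6 siNC libraries matched its own number best. Each same-numbered pair lies on opposite sides of the IL1B split, and a small shared batch could be missed, so these values do not settle pairing. Among 31 further genes named, 63 of 708 comparisons no longer passed and 0 reversed.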
